A study of Homo sapiens with 18 samples.

Results

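The regions described here are m6A peaks that lie in exons of long noncoding RNA (lncRNA) genes. They were chosen by annotation and name alone: a peak of the authors' deposited tables belonged to the set where it was annotated to an exon and its gene carried a lncRNA name. Such names were LINC followed by a number, an ending in AS or DT (antisense or divergent transcript), SNHG followed by a number (small nucleolar RNA host genes), a clone name (AC, AL or AP with 6 digits), MALAT1 or NEAT1. The rule found 1178 of 14903 peaks in the authors' deposited table for BPQD, in 961 genes, and 988 of 12891 peaks in the authors' deposited table for TiO2, in 829 genes. Joining overlapping entries left 1117 and 938 separate regions. Together the tables name 1387 genes, of which 403 appear in both.

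The cells were labelled A549, a human lung adenocarcinoma line, and formed 3 groups. The control was untreated. The exposed groups received 10 mg/L BPQD (an abbreviation in use for black phosphorus quantum dots) or 100 mg/L TiO2 (titanium dioxide), each for 24 h, and the series asks whether RNA methylation changed with nanomaterial exposure. Each group had 3 input RNA libraries and 3 libraries of RNA pulled down with an antibody against m6A. The doses differed, so values for the materials describe the exposures as given. The labels do not say whether a group's libraries come from cultures grown apart. A p-value below therefore sets a difference against the spread of these libraries alone, and that spread could be technical. The depth of the libraries was not given.

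The label was checked against markers in the input RNA, where FPKM, the number of fragments scaled by transcript length and library size, gives the level of a gene. Of 5 epithelial markers, the keratins KRT8, KRT18 and KRT7 had lowest values of 217.6, 403.3 and 205.7 FPKM over the 9 libraries, while the adhesion genes EPCAM and CDH1 reached only 3.09 and 0.409. The surfactant genes SFTPB, SFTPC and SFTPA1 and the lung factor NKX2-1 stayed at or below 0.144 FPKM in all 9. AKR1C1, AKR1B10 and ALDH1A1, which A549 is known to express strongly, reached only 1.14, 0.998 and 0.117 FPKM. CDKN2A, which is deleted in A549, was at 19.3 to 27.4 FPKM. These 4 genes go against the label, and the libraries are therefore called cells labelled A549. Other markers were mixed: ABCA3 of alveolar cells reached 11.9 FPKM, CD68 of macrophages 22.9 and CDH5 of endothelium 3.73, while PTPRC, CD3E, PECAM1 and VWF were at or below 0.186. Markers of several kinds were lower with the materials, among them 3 of 4 tested epithelial markers with BPQD and 2 with TiO2, where all tested genes gave 23.4% and 20.5% lower. The fibroblast genes COL1A1 (1.52 to 3.39 FPKM) and PDGFRB (1.61 to 3.29) and ABCA3 were lower with both. The other listed fibroblast genes, COL1A2 and DCN, reached only 0.104 and 1.04 FPKM and were too low to be tested. CDH5 was lower with BPQD, and CD68 was higher with TiO2. The part of these markers in the results was not tested. Libraries of a group correlated at 0.980 to 0.983 with each other and at 0.966 to 0.975 with other groups.

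N6-methyladenosine (m6A) is a methyl mark placed on adenosines inside RNA by a writer complex around METTL3 and METTL14, removed by the erasers FTO and ALKBH5, and bound by reader proteins of the YTH family. The writers prefer a short sequence with adenosine followed by C, of which GGACT, written with U for T in RNA, is the best known. LncRNAs carry the mark as mRNAs do. MALAT1, an abundant nuclear RNA of speckles, is among the best studied methylated lncRNAs, and NEAT1 builds the paraspeckles of the nucleus.

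Names do not settle what a gene is. By the descriptions that the expression table gives, the 1387 genes hold 526 transcripts with no further identity, 329 antisense RNAs, 245 other named noncoding RNAs, 224 pseudogenes, 37 entries marked TEC, 7 proteins or readthroughs and 19 with another description. RefSeq lists 9 of them as coding for protein, among them AC011462, whose identifier ENSG00000105329 is that of TGFB1, and AC124319 (ENSG00000173821), that of RNF213. The rule keeps all of these, and counts without the 240 genes that are pseudogenes or code for protein are given beside the main ones. Of the clone names, some stand for several genes, and 640 of the 1387 genes share a name with another identifier. In the authors' deposited table for BPQD the annotated exon belonged to the named gene itself for 86.2% of the 1178 peaks, and in 163 it belonged to another gene, 36 of which code for protein in RefSeq. The same held for 148 peaks with TiO2, of which 30 fell in an exon of such a gene. The strand of the reads was not given, so a peak on an antisense RNA cannot be told apart from one on its partner.

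Sequence could be read only at transcription starts, from RefSeq windows of GRCh38.p14 that reach from 250 bases before to 50 bases after a start. In all, 109 peaks of 81 genes reach into the window of their own gene. The part of the peak inside the window is shown for 4 RNAs that the results below turn on or that hold a GGACT. It is given 5′ to 3′ on the strand of the RNA, in lower case. Capitals mark 6 words searched on that strand as forms of the sequence that the writers prefer. These are GGACT, the best known of them, and GGACA, which differs from it in the last letter only. GGACC is another such variant. The remaining forms begin otherwise: they are AGACT in the case of a changed opening letter, AAACT where a pair of letters is changed, and finally GAACT. No word overlaps another in the sequences shown.
MALAT1 (chr11:65499005-65499094, + strand, of which 40 bases precede the start): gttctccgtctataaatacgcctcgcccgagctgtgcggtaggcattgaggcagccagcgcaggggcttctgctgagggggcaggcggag
LINC01123 (chr2:109986939-109987029, + strand, of which 41 bases precede the start): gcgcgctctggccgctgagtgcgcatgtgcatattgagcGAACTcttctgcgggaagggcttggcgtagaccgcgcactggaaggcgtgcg
LINC02595 (chrX:45851441-45851490, - strand, from the start): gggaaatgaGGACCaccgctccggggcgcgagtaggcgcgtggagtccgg
MAPKAPK5-AS1 (chr12:111841881-111842129, - strand, of which 199 bases precede the start): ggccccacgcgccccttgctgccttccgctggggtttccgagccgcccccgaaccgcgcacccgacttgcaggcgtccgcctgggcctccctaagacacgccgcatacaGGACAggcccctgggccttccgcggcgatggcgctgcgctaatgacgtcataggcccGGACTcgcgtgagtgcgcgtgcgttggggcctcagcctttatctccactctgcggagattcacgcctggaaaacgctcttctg

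The start of MALAT1 holds none of the 6 words within its 90 bases, and the peak there runs on for 1976 bases in the authors' deposited table for BPQD. LINC01123 holds 1 word, astride the start, and LINC02595 holds 1. MAPKAPK5-AS1 holds a GGACA and a GGACT, both upstream of the annotated start. Over the 59 member starts whose 50 transcribed bases lie wholly inside a peak, 18 (30.5%) hold at least 1 of the 6 words on the strand of the RNA, against 24.0% of 35097 start windows of all genes. The 4029 windows of genes with a lncRNA name gave 25.3%. On the opposite strand the shares were 16.9% for member starts and 24.4% for all windows. GGACT itself stood in 2 of the 59 (3.39%), against 4.90% of all windows, and GGACA in 7 (11.9%), against 4.86%. GGACC (6.78% against 5.39%) and AAACT (5.08% against 3.38%) also stood above all windows. AGACT (3.39% against 4.23%) and GAACT (0 of 59 against 3.68%) stood below. These differences were not tested. A match is a run of letters and not a methylated site, and the rest of each peak was not read.

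With BPQD, more lncRNA exon peaks were higher in m6A than lower. A peak is called here where the p-value in the authors' deposited table is under 0.05, and its change is the authors' log2 fold change of enrichment, which has no replicate values and so no error of its own. In the authors' deposited table for BPQD, 431 of the 1178 peaks were called higher and 132 lower, so 47.8% were called. Over all its peaks 64.8% were called, 37.7% higher and 27.1% lower. Of the lncRNA exon peaks 36.6% were called higher and 11.2% lower. The difference was not tested, and the genes are scarcer, with a median over peaks of 0.340 FPKM against 3.66 over all peaks. Of the called ones 76.6% were higher, against 58.1% of all called peaks and 62.7% of called exon peaks in other genes. The median change was 0.56 over the lncRNA exon peaks, 0.38 over the 3219 exon peaks of other genes and 0.16 over all peaks. Changes of 1 or more on the log2 scale were called in 158 peaks upward and 53 downward, where all peaks gave 6.74% and 2.39%. Without the pseudogenes and protein-coding genes, 358 peaks of 961 were higher and 106 lower.

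With TiO2 the direction was alike and the changes were smaller. In the authors' deposited table for TiO2, 330 of the 988 peaks were called higher and 107 lower, so 44.2% were called, where all peaks gave 64.1% in all, 40.3% higher and 23.8% lower. Of the called peaks 75.5% were higher, against 62.9% of all called peaks and 61.3% of called exon peaks in other genes. Median changes were 0.31 over the lncRNA exon peaks, 0.16 over the 2454 exon peaks of other genes and 0.15 over all peaks. Called changes of 1 or more numbered 82 upward and 45 downward, where all peaks gave 3.29% and 2.20%. The difference between the materials was not tested, since both tables rest on the same control libraries and give no values per library.

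**Figure D1:**
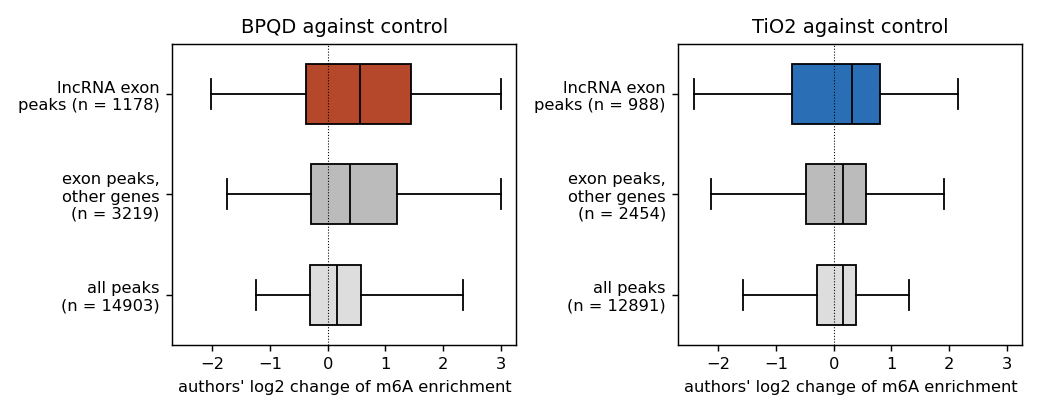
Box plots of the authors' log2 change of m6A enrichment against control, for all peaks, exon peaks of other genes and lncRNA exon peaks, with BPQD on the left and TiO2 on the right. Boxes span the quartiles with the median as a line and whiskers reach the 5th and 95th percentiles; the median of the lncRNA exon peaks is 0.56 with BPQD and 0.31 with TiO2, and their boxes are the widest.

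Most of these RNAs were scarce. The median gene of the set had a mean of 0.282 FPKM over the 9 input libraries, and the middle 80% lay between 0.0257 and 2.11 FPKM, while all listed genes with a peak had a median of 2.82 FPKM. The share of peaks called rose with the level of the gene. In the authors' deposited table for BPQD it was 21.3% of 296 peaks in genes under 0.1 FPKM, 46.4% of 578 at 0.1 to 1, 75.6% of 291 at 1 to 10, and 12 of 13 at 10 or more. Their median change fell from 1.52 in the lowest class to 0.22 in the highest, so the largest changes belong to the scarcest RNAs. At 1 to 10 FPKM, 56.0% of lncRNA exon peaks were called higher and 19.6% lower, against 40.9% and 18.8% of exon peaks in other genes of that level. The upward share of called peaks was thus 74.1% and 68.4%. Below 1 FPKM, where most lncRNA exon peaks lie, the shares were closer. They were 74.6% and 74.0% under 0.1 FPKM, and 78.7% and 75.5% at 0.1 to 1. Exon peaks of other genes at these levels thus leaned upward much as the lncRNA exon peaks did. At 10 FPKM or more, exon peaks of other genes were called lower (44.6%) more often than higher (31.4%), while 10 lncRNA exon peaks were higher and 2 lower. The 13 lncRNA exon peaks of that level lie in only 10 genes, and MALAT1 holds several of them.

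The classes by level looked much the same in the authors' deposited table for TiO2. There 25.3% of 229 peaks were called under 0.1 FPKM, 44.5% of 497 at 0.1 to 1, 58.5% of 246 at 1 to 10, and 14 of 16 at 10 or more. At 1 to 10 FPKM 48.4% of lncRNA exon peaks were higher and 10.2% lower, against 37.3% and 19.1% of exon peaks in other genes. In genes at 10 FPKM or more, 12 peaks were higher and 2 lower, and the 16 peaks lie in only 11 genes. Under 0.1 FPKM the median change was -0.19, the only level class of the set with a median below 0. Exon peaks of other genes at that level had a median of -0.35. Of the called lncRNA exon peaks under 0.1 FPKM 62.1% were higher, against 74.6% of called exon peaks in other genes. At 0.1 to 1 FPKM these shares were 73.8% and 69.7%.

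**Figure D2:**
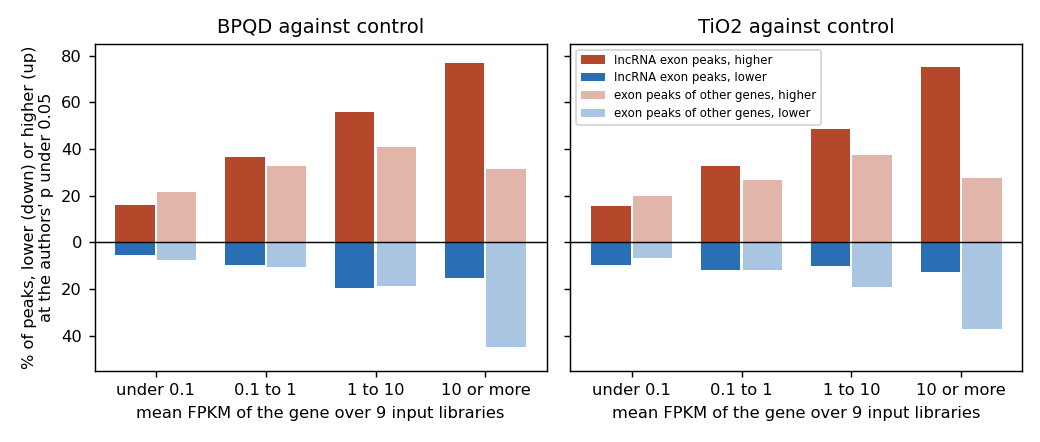
Bars give the percentage of peaks called higher (upward) or lower (downward) by mean FPKM of the gene, for lncRNA exon peaks (dark) and exon peaks of other genes (pale), with BPQD on the left and TiO2 on the right. Called shares grow with level for both kinds of gene, and from 10 FPKM exon peaks of other genes are lower more often than higher (44.6% and 31.4% with BPQD). LncRNA exon peaks of that level, 13 in 10 genes with BPQD and 16 in 11 genes with TiO2, are mostly higher.

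By kind of gene, clone-named genes made up most of the set, with 813 peaks in the authors' deposited table for BPQD and 637 in that for TiO2. Their called peaks were higher in 291 and lower in 92 cases with BPQD, and 207 and 71 with TiO2. Intergenic LINC genes had 64 higher and 9 lower of 176 peaks with BPQD, with a median change of 0.74, and 61 higher and 22 lower of 181 with TiO2, with a median of 0.28. Antisense genes had 51 higher and 24 lower of 141 peaks with BPQD and 44 higher and 12 lower of 126 with TiO2. Divergent transcripts had 16 higher and 6 lower of 38, and 10 higher and 2 lower of 29. More peaks were higher than lower in each of these kinds, as over all peaks. Of all peaks 37.7% were higher and 27.1% lower with BPQD, and 40.3% and 23.8% with TiO2. The share called higher over these kinds ran from 35.8% (clone-named) to 42.1% (divergent) with BPQD, near that of all peaks. The few peaks of MALAT1, NEAT1 and small nucleolar RNA host genes are given below. Of 466 peaks over the start of their gene 60.9% were called with BPQD, and of the 712 others 39.2%. With TiO2 the shares were 52.1% of 380 and 39.3% of 608, and neither difference was tested. Those over a start were wider, with a median of 803.5 bases against 382.5 with BPQD.

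Among the lncRNA exon peaks, MALAT1 held that of smallest p in each table. In MALAT1 (chr11, + strand) 3 peaks lie along the RNA. The peak over the start (chr11:65499005-65500980) rose by 0.28 with p = 1e-142 in the authors' deposited table for BPQD, and its counterpart by 0.18 with p = 3.98e-49 in that for TiO2. The middle peak (chr11:65501099-65501249) rose by 0.53 with BPQD and 0.21 with TiO2 in the authors' deposited tables. The third peak (chr11:65502416-65503134) rose by 1.42 with BPQD, with a p listed at 0 in the authors' deposited table. In the authors' deposited table for TiO2 a narrower peak there (chr11:65502476-65502745) rose by 0.30 with p = 1.26e-06. All 3 positions of MALAT1 were thus called higher with either material, and the values of BPQD are the larger.

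NEAT1 (chr11:65422774-65445540, + strand) had 5 peaks with BPQD and 3 with TiO2. The peak over its start appears in the authors' deposited tables as 2 nearly identical entries, which rose by 0.17 with BPQD (p = 1e-298) and by 0.04 with TiO2 (p = 6.31e-15 and 7.94e-15). A p-value that small beside so small a change reflects the authors' test alone, since no spread between libraries is given. A pair of overlapping entries at chr11:65425854-65426543 and chr11:65425855-65426513 rose by 0.17 with BPQD. Further along, beyond the short form of NEAT1, the peak at chr11:65428191-65428791 rose by 3.81 with p = 1.26e-86 in the authors' deposited table for BPQD, and no TiO2 peak of the set overlaps it. The authors' deposited table for TiO2 has a 90-base entry at chr11:65423303-65423392 with a change of -0.07 and p = 0.172.

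Small nucleolar RNA host genes carry snoRNAs in their introns, and their spliced exons remain as lncRNA. Only SNHG26 and SNHG9 have exon peaks in the authors' deposited table for BPQD, with SNHG26 higher by 0.52 (p = 0.0269, but an FDR of 0.11) and SNHG9 lower, with a change of -0.46 (p = 0.00457). In the authors' deposited table for TiO2, 3 of 9 peaks in these host genes were called, where 64.1% of all peaks were. The 3 were higher: SNHG16 by 0.18 (p = 8.51e-08), SNHG21 by 0.31 (p = 0.0363) and a wide SNHG29 peak by 0.51 (p = 0.0132) in the authors' deposited table. The authors' FDR of SNHG21 (0.151) and SNHG29 (0.0741) is above 0.05. The others had p-values from 0.0589 to 0.367 in the authors' deposited table, among them SNHG10 with a change of 1.3 (p = 0.0603), SNHG7 with -0.38 (p = 0.0912), SNHG11 with -0.20, SNHG17 with -0.18 and SNHG26 with 0.14.

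Among the lower peaks with BPQD, AC006453 on chromosome 2 had the smallest p-value. Its exon 3 peak (chr2:89542872-89543706) had a change of -3.34 (p = 1.26e-15) in the authors' deposited table, while a wide peak over its exon 1 (chr2:89562404-89585592) rose by 1.04 (p = 4.17e-08). A similar split appears at LINC01106, where the authors' deposited table for BPQD has overlapping entries of -2.28 (p = 2.09e-06) and 0.24 (p = 0.000724). Both entries are annotated to an exon of another gene. AC012085, described as a pseudogene of the glycolytic enzyme PGAM1, was lower with both, at -1.69 for BPQD (p = 3.98e-08) in the authors' deposited table and -1.65 for TiO2 (p = 1.15e-06) in the other. Its input level varied among the control libraries, at 52.9, 17.2 and 9.14 FPKM. The rest of the 8 lower peaks of smallest p with BPQD were RAB30-AS1 by -0.57 and -0.50 in its exons 1 and 2, TP73-AS1 by -0.39, AC073916 by -0.17 and AP002490 by -0.09. The input level of RAB30-AS1 was 1.46, 1.64 and 1.76 FPKM in control and 3.18, 3.0 and 3.37 with BPQD. That of TP73-AS1 averaged 1.21 in control and 1.18 with BPQD. Of the 8 higher peaks of smallest p in the authors' deposited table for BPQD, AL662797 held the only one outside MALAT1 and NEAT1 (0.15, p = 7.94e-48), and the exon there is that of the tubulin gene TUBB.

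LINC01123 (chromosome 2, + strand) had the lower peak of smallest p with TiO2. Over its start, where the sequence above begins (chr2:109986939-109987503), the authors' deposited table for TiO2 gives -2.84 (p = 1e-31), and the next peak in exon 2 gives -0.91 (p = 0.017, FDR 0.0891). The peak in its last exon was higher by 0.19 (p = 0.0145, FDR 0.0794) in the authors' deposited table. With BPQD the authors' deposited table has 1 long peak from exon 1 onward (chr2:109987063-109993792) that rose by 0.32 (p = 1.05e-07) and a last-exon peak that rose by 0.30 (p = 0.000224). The overlapping exon 1 peaks of LINC01123 thus have opposite signs in the tables, but the regions compared differ in extent. The BPQD peak begins past the start shown above and does not cover it. AC053503, at only 0.0311 FPKM, had -4.56 with TiO2 (p = 3.09e-05) and -2.69 with BPQD (p = 0.0501) in the authors' deposited table of each. Its input level was 0 FPKM in every control library, with means of 0.0348 with BPQD and 0.0587 with TiO2. These changes are therefore set against a control with no measured input level.

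The other lower peaks named for TiO2 were small changes. AC245041 (chromosome 10) had -0.21 (p = 2e-11), and this peak sits inside a far wider entry (chr10:47934460-47991850) annotated to another gene, which rose by 0.27 (p = 1e-16) in the authors' deposited table for TiO2. AP002490 changed by -0.13, TP73-AS1 by -0.35, AL669831 by -0.48 and AC073916 by -0.14. The higher peaks of smallest p in the authors' deposited table for TiO2, besides MALAT1, NEAT1 and AC245041, lay in FGD5-AS1 (0.27, p = 1e-32), AL390728 (0.47, p = 1e-20), OTUD6B-AS1 (0.34, p = 2e-18) and AC018647 (0.65, p = 1.26e-14). With BPQD the overlapping peaks of these 4 genes were called higher as well, by 0.09, 0.48, 0.26 and 0.29.

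**Figure D3:**
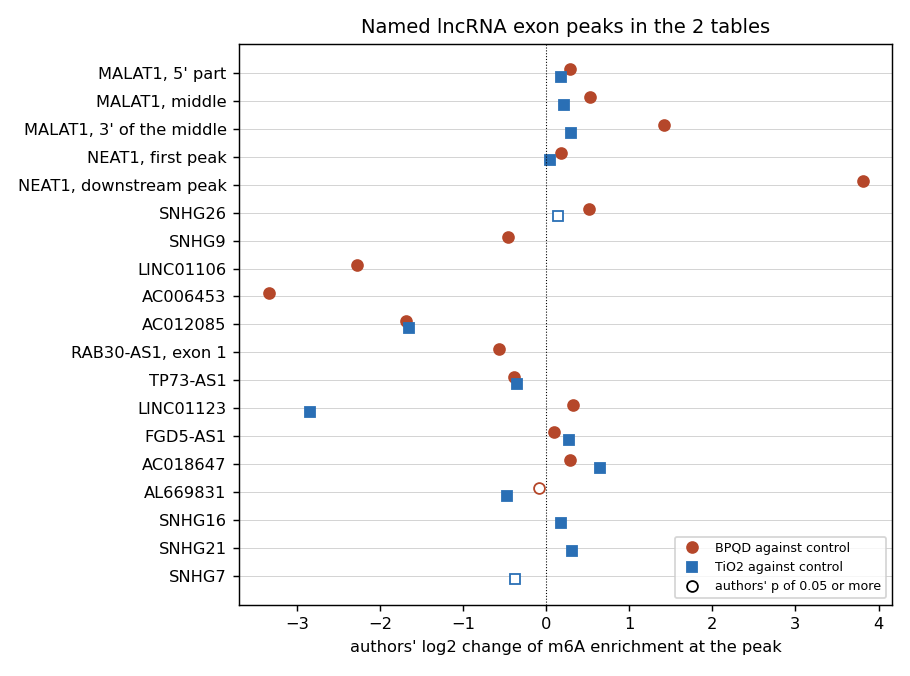
Points give the authors' log2 change of m6A enrichment at named lncRNA exon peaks, with circles for BPQD, squares for TiO2 and open symbols for a p of 0.05 or more; a missing symbol means that the table has no overlapping lncRNA exon peak of that gene. The downstream NEAT1 peak (3.81, BPQD) is the farthest above 0 of those drawn, and AC006453 (-3.34, BPQD) and the LINC01123 start peak (-2.84, TiO2) are the farthest below.

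Several genes held many peaks. AL117329, at 0.0766 FPKM, had 9 in the authors' deposited table for BPQD, with changes from -2.00 to 4.09, of which 2 were called and both higher (1.52, and 0.83 with an FDR of 0.124). AC124319, the gene with the identifier of RNF213, had 7 peaks with BPQD and 4 with TiO2. LINC00926 had 5 entries with BPQD, from 3.81 to 7.25, of which the widest (chr15:57306990-57307731) has the highest change of any lncRNA exon peak in the authors' deposited table (7.25, p = 0.000182), at a level of 0.0276 FPKM. Among its other entries in the authors' deposited table, only that of 5.46 was called (p = 0.0269, FDR 0.11). The rest had p-values from 0.0813 to 0.151 there. LINC00667 had 5 entries with TiO2, of which a peak of 0.27 (p = 2.34e-06) was called higher and a peak of -0.19 (p = 0.0112, FDR 0.0676) lower in the authors' deposited table. Entries of LINC00926 and LINC00667 overlap, so a region can be listed more than once.

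Where the tables list the same region, the values can be set side by side. Of the 1178 BPQD peaks 411 (34.9%) overlap a TiO2 peak of the same gene by at least 1 base, and 406 of the 988 TiO2 peaks (41.1%) overlap a BPQD peak. With at least 50% of both peaks covered, 348 and 347 remain. Both tables use the same control libraries, so like values in them are no independent finding. AC097478 (chr4:89685313-89686478) had 0.54 with BPQD and 0.43 with TiO2, and LINC00963 (chr9:129488661-129493165) 0.22 and 0.31, all called in the authors' deposited tables. At other places in LINC00963, the authors' deposited table for BPQD has called peaks of -0.25 (p = 0.00347) and 0.60 (p = 2.69e-05), and that for TiO2 a called peak of 0.31 (p = 2e-11).

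The RNA level of these genes was tested in the 9 input libraries. Of the 1387 genes, 310 had a mean of at least 1 FPKM and were tested among 12224 genes with limma on log2(FPKM + 1), where a gene is called at a Benjamini-Hochberg adjusted p under 0.05. That mean is taken over all 9 libraries, so a gene under 1 FPKM in control can pass through the group where it is high. The counts of higher genes below include such genes. A fold change on this scale understates the change of scarce RNAs. In bulk samples, fewer cells that express a gene and less RNA per cell cannot be told apart. With BPQD 81 of the 310 genes were higher than in control and 29 lower, so 35.5% were called, where all tested genes gave 44.0% in all, 20.6% higher and 23.4% lower. The lower count fell to 19 without control replicate 3. With TiO2 17 were higher and 61 lower (25.2%), where all genes gave 37.7%, with 17.3% higher and 20.5% lower. The higher count fell to 11 without TiO2 replicate 2.

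Between the materials 126 genes were higher with BPQD than with TiO2 and 30 lower. This is 50.3% of the 310, where all genes gave 37.6%, with 19.0% higher and 18.6% lower. The median log2 fold change of the 310 genes was 0.09 for BPQD against control, -0.10 for TiO2 against control and 0.20 for BPQD against TiO2, where the median of all genes was -0.01, -0.02 and 0.00. Genes with a lncRNA name but no exon peak were alike in sign: of 734 such genes, 128 were higher and 80 lower with BPQD, 37 higher and 126 lower with TiO2, and 180 higher and 41 lower between the materials. Without the 63 pseudogenes and protein-coding genes tested, the counts over the other 247 genes were 68 higher and 24 lower, 15 and 47, and 104 and 24.

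**Figure D4:**
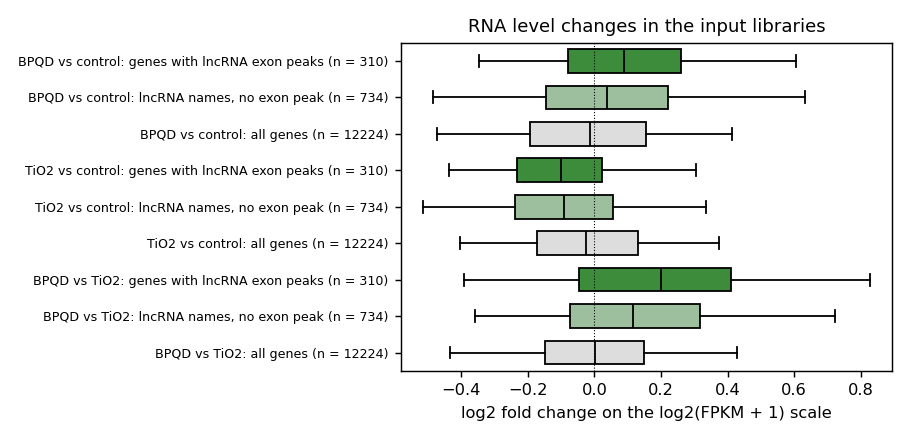
Box plots of the limma log2 fold change for genes with lncRNA exon peaks (n = 310), genes with a lncRNA name and no exon peak (n = 734) and all tested genes (n = 12224) in the 3 comparisons. Boxes span the quartiles with the median as a line and whiskers reach the 5th and 95th percentiles; the median of genes with lncRNA exon peaks is 0.20 for BPQD against TiO2, the highest of the 9 boxes.

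NEAT1 was the best known RNA to rise. Its input level was 3.12, 4.25 and 3.43 FPKM in the control libraries, 9.0, 13.3 and 14.4 with BPQD, and 3.01, 2.52 and 6.92 with TiO2. All BPQD libraries lay above all others, and 1 TiO2 library lay above the controls. The change with BPQD was 1.51 ± 0.31 (SE, n = 3 per group) with adjusted p = 0.00559 by limma, and against TiO2 it was 1.43 with adjusted p = 0.0083. MALAT1 was at 51.5, 50.8 and 52.1 FPKM in control and 51.2, 49.4 and 44.6 with TiO2, but at 69.6, 171 and 71.0 with BPQD. The BPQD libraries were all above the others, and replicate 2 stood far above the other two. The change of 0.87 ± 0.31 (SE) had adjusted p = 0.0555 by limma. Without BPQD replicate 1, 2 or 3 it was 1.08, 0.44 or 1.07, with adjusted p of 0.0368, 0.00139 or 0.0409. Against TiO2 the change of 0.96 had adjusted p = 0.0448 by limma, and leaving out any 1 of the TiO2 or control libraries brought that p to between 0.0652 and 0.112.

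Further genes that rose with BPQD started from levels that ranged widely. LINC02595 and AC139100 had means under 1 FPKM in control and with TiO2, and passed the filter only through their BPQD libraries. LINC00641 had 1.89, 1.85 and 1.98 FPKM in control, 5.84, 6.20 and 5.91 with BPQD and 1.54, 1.46 and 1.22 with TiO2, a log2 change of 1.26 ± 0.06 (adjusted p = 5.92e-06, limma). Its exon peak rose as well, by 2.50 (p = 1.26e-14) in the authors' deposited table for BPQD. LINC02595 had 1.01, 0.768 and 0.760 FPKM in control and 5.04, 5.15 and 4.88 with BPQD, a change of 1.71 ± 0.09 (adjusted p = 1.32e-05), while TiO2 left it at 0.616, 0.907 and 0.518. Its peak at the start shown above had 0.87 (p = 0.00562) for BPQD and 1.53 (p = 0.01, FDR 0.0603) for TiO2 in the authors' deposited tables. AC139100 went from a mean of 0.577 ± 0.047 to 3.02 ± 0.267 FPKM (SD, n = 3), and AC245041 from 50.7 ± 7.39 to 101 ± 2.88. For LINC01123 the means were 7.71 ± 1.09 FPKM in control, 12.3 ± 1.52 with BPQD and 7.19 ± 0.163 with TiO2, and the change with BPQD was 0.61 with adjusted p = 0.00242 by limma.

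Of the 8 largest rises with BPQD, 3 were in genes described as pseudogenes. AC104046, a pseudogene of the lipid carrier FABP5, had 0.233, 0 and 0.195 FPKM in control and 7.50, 6.57 and 6.74 with BPQD (log2 change 2.80, adjusted p = 2.33e-06, limma). FABP5 itself was at 16.1 ± 0.254 in control and 15.1 ± 0.847 with BPQD (adjusted p = 0.17, limma). AC125611, a pseudogene of FGFR1OP2, went from 0.439 ± 0.168 to 2.49 ± 0.209 FPKM, while FGFR1OP2 had 7.60 ± 0.253 and 7.46 ± 0.412. AC122718, described as a pseudogene of DDX25, went from 0.177 ± 0.0632 to 2.83 ± 0.567, and its peak rose by 2.24 (p = 1.51e-05) in the authors' deposited table for BPQD. Reads of near-identical copies can be split between a pseudogene and its parent, so the levels of these 3 genes are uncertain. All 3 had means under 1 FPKM in control and with TiO2, and were tested only because their BPQD libraries were high.

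The falls with BPQD were smaller than the rises. LINC02582 had 12, 10.7 and 12.7 FPKM in control, 7.98, 6.69 and 6.39 with BPQD and 12.7, 13.5 and 12.9 with TiO2, a change of -0.68 ± 0.08 (adjusted p = 0.000538, limma). The BPQD libraries of LINC02582 lay below all others. PINK1-AS, antisense to the mitochondrial kinase gene PINK1, had 9.08, 9.55 and 9.58 FPKM in control, 6.11, 6.13 and 6.16 with BPQD and 8.40, 8.37 and 8.45 with TiO2 (change -0.54, adjusted p = 1.08e-05). Its 2 overlapping exon peaks rose by 0.92 and 0.96 in the authors' deposited table for BPQD but are annotated to an exon of another gene, and whether counting used strand was not given. AC009275 went from 6.65 ± 0.349 to 4.22 ± 0.191, AC105460 from 2.26 ± 0.109 to 1.11 ± 0.173, and AC008735 from 1.51 ± 0.215 to 0.821 ± 0.117. AC011462, whose identifier is that of TGFB1, went from 18.4 ± 0.478 to 11.6 ± 0.339 FPKM and is no lncRNA by that identifier.

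**Figure D5:**
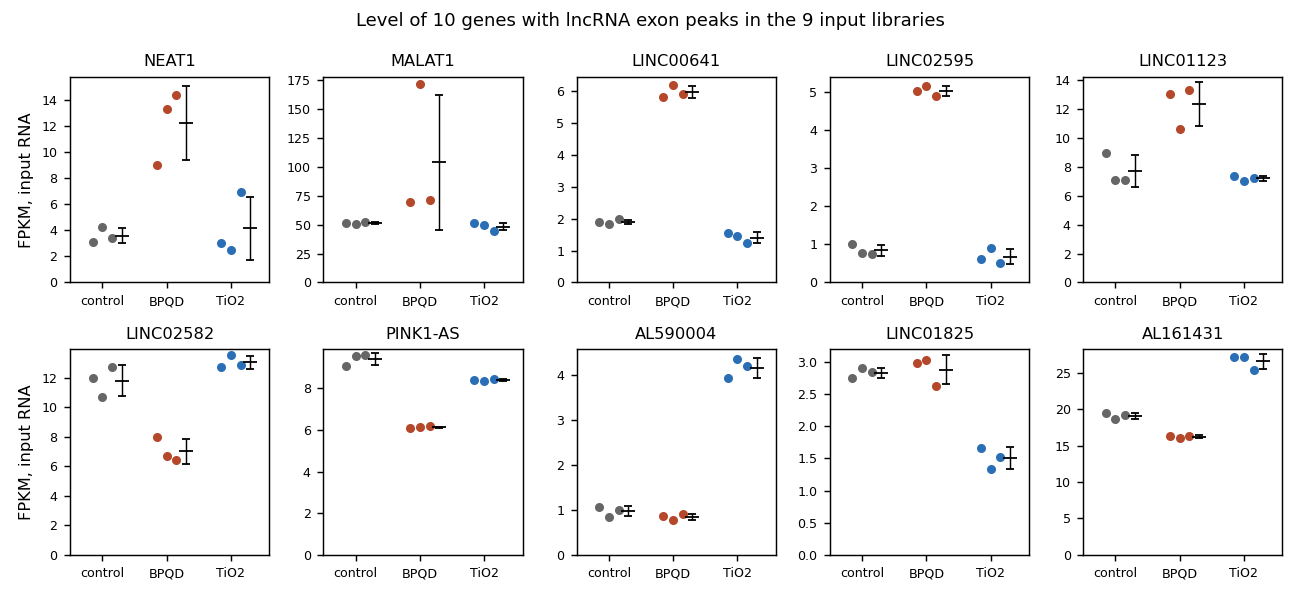
Each panel gives the FPKM of 1 gene with lncRNA exon peaks in the 3 control, 3 BPQD and 3 TiO2 input libraries (points), with the mean and SD of each group beside them in black and axes that start at 0. NEAT1, LINC00641, LINC02595 and LINC01123 are highest with BPQD, AL590004 and AL161431 with TiO2, and 1 of the 3 BPQD libraries of MALAT1 stands at 171 FPKM.

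With TiO2, AL590004 on chromosome 6 had the largest rise. Its level was 1.05, 0.841 and 0.996 FPKM in control, 0.854, 0.773 and 0.896 with BPQD, and 3.92, 4.35 and 4.20 with TiO2, a change of 1.39 ± 0.06 (adjusted p = 5.39e-06, limma). AL590004 had means under 1 FPKM in control and with BPQD, and passed the filter only through its TiO2 libraries. All 3 of its TiO2 peaks rose, by 0.50, 0.54 and 0.83 in the authors' deposited table. AL161431 went from 19.1 ± 0.410 in control to 26.6 ± 1.05 with TiO2 and down to 16.2 ± 0.162 with BPQD, so its TiO2 libraries lay above and its BPQD libraries below the controls. LINC02104 rose from 1.51 ± 0.0624 to 2.37 ± 0.156 FPKM, LINC01843 from 1.54 ± 0.198 to 2.39 ± 0.148, and AC008760, intronic to the complement gene C3, from 1.61 ± 0.0277 to 2.46 ± 0.110.

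Falls with TiO2 outnumbered rises. AC097478 had 3.10, 2.99 and 3.10 FPKM in control, 2.25, 2.04 and 2.09 with BPQD and 1.66, 1.54 and 1.48 with TiO2, a change of -0.67 ± 0.04 (adjusted p = 3.85e-05, limma). Its m6A peak, given above, was called higher with both materials, so the m6A change and the change in RNA level have opposite signs there. LINC01825 had 2.76, 2.91 and 2.84 in control, 2.99, 3.03 and 2.62 with BPQD and 1.67, 1.33 and 1.53 with TiO2 (change -0.61, adjusted p = 0.000271). AC091948, antisense to a cluster of SPINK genes, went from 2.47 ± 0.0835 to 1.26 ± 0.136 with TiO2, and AC103591 from 1.64 ± 0.132 to 0.780 ± 0.279. AC069499, described as a pseudogene of the ribosomal protein RPL13, went from 3.38 ± 0.331 to 2.08 ± 0.156, while RPL13 itself fell from 95.6 ± 8.37 to 76.5 ± 3.67 (adjusted p = 0.00785, limma).

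Among the 8 tested small nucleolar RNA hosts, 2 were higher and 1 lower with BPQD, and 2 were lower with TiO2. All tested genes gave 20.6% higher and 23.4% lower with BPQD, and 17.3% and 20.5% with TiO2. SNHG7 was at 5.46 ± 0.156 FPKM in control, 6.5 ± 0.344 with BPQD and 4.63 ± 0.031 with TiO2, and both changes were called (adjusted p = 0.00333 and 0.00638, limma). SNHG17 rose from 8.51 ± 0.645 to 10.3 ± 0.077 with BPQD (adjusted p = 0.011). SNHG29 fell from 65.4 ± 1.46 to 54.8 ± 0.412 with TiO2 (adjusted p = 0.000105, limma) and was at 66.3 ± 0.404 with BPQD. SNHG11 went from 2.83 ± 0.368 to 2.18 ± 0.235 with BPQD (adjusted p = 0.0499, limma), a call lost on leaving out any of 7 libraries (adjusted p up to 0.144 without BPQD replicate 3). Between the materials 5 of the 8 were higher with BPQD and SNHG11 was lower, where all tested genes gave 19.0% higher and 18.6% lower. The SNHG11 call was lost without any of 5 libraries (adjusted p up to 0.119, limma). SNHG9, 1 of the 5 higher hosts, was lost without TiO2 replicate 1 or 2 (adjusted p = 0.0634 or 0.0735, limma).

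The m6A change and the RNA level were set against each other with 1 peak per gene, that of the smallest p. With BPQD, over 225 tested genes, 51 had both a higher peak and a higher level and 10 a higher peak and a lower level. Another 9 had a lower peak and a higher level, 6 were lower in both, and 72 had a higher peak and no called level. Higher calls outnumbered lower ones in peaks and in levels alike, and a link between them was not tested. Across these genes, which share libraries and are not independent replicates, Pearson's r was 0.10 and Spearman's rho 0.13. With TiO2, over 209 genes, 13 were higher in both, and 23 had a higher peak and a lower level. None had a lower peak and a higher level, 4 were lower in both, and 82 had a higher peak and no called level. There r was -0.02 and rho -0.06. A higher m6A peak in the authors' deposited tables thus went with levels of either direction. Among these genes, called levels were more often higher with BPQD and more often lower with TiO2. The same counts were not made over all genes with a peak, so they cannot be set against a background.

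The genes that write, erase and read the mark were counted from a list. Of 8 tested writer genes 5 were called higher with BPQD and none lower, where all tested genes gave 20.6% higher and 23.4% lower with BPQD, and 17.3% and 20.5% with TiO2. The writers METTL3 and METTL14, the catalytic pair, rose from 6.63 ± 0.146 to 7.84 ± 0.268 and from 1.56 ± 0.0275 to 2.77 ± 0.394 FPKM (adjusted p = 0.0168 and 0.00472, limma). WTAP, VIRMA and ZC3H13 were the others, with log2 changes of 0.15, 0.26 and 0.20. METTL3 was no longer called without control replicate 1 or BPQD replicate 2 (adjusted p = 0.0508 or 0.0545, limma), nor WTAP without control replicate 3 or BPQD replicate 1 (adjusted p = 0.0529 or 0.0526). With TiO2, ZC3H13 was higher and RBM15B lower, with changes of 0.12 and -0.11. Of the 2 erasers ALKBH5 was lower with both materials, at 33.5 ± 1.19 FPKM in control, 28.8 ± 0.323 with BPQD and 29.2 ± 0.541 with TiO2. Of 5 readers YTHDC1, the nuclear reader, was higher with both (9.78 ± 1.02 in control, 15.3 ± 1.3 with BPQD and 12 ± 0.141 with TiO2), and YTHDC2 was higher with BPQD. The call of YTHDC1 with TiO2 was lost without control replicate 2 or 3 or any TiO2 library (adjusted p from 0.0572 to 0.0764, limma). Whether these levels have a part in the changes at lncRNA peaks was not tested.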

How the data were processed

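The 18 libraries (3 input and 3 m6A immunoprecipitation per group) were grouped by their titles. The authors deposited FPKM per gene for the 9 input libraries; HISAT2 and StringTie 1.3.0 are named, per the submitters' processing notes, which list the mouse build mm10. The IDs are human: 354 genes of the set matched a RefSeq GRCh38.p14 symbol, all on the same chromosome and 328 with a start or end within 1000 bases, so coordinates are read as GRCh38. Per the file headers, the authors' deposited peak tables give log2 fold changes, p-values and an FDR score on a log10 scale; the peak caller, and any pooling of replicates, is not given in the sources used here. A further 12 columns with values per sample were not used.

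The 12224 genes whose mean reached 1 FPKM were tested with limma 3.58.1 in R 4.3.3 on log2(FPKM + 1), with group means, all 9 libraries, a trend and two-sided Benjamini-Hochberg adjusted p under 0.05. Peaks were called at the authors' p under 0.05. The fit was first tested on simulated data with known changes. Replicate numbers did not pair libraries (correlations of deviations from -0.083 to 0.0733).

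The members and gene lists were chosen with earlier results of these data known. Named were, per table, the 8 higher and 8 lower peaks of smallest p; per expression comparison, up to 8 higher and 8 lower called genes with the largest change whose groups do not overlap; peaks called in both tables, of which only a few are described; all peaks of MALAT1, NEAT1 and SNHG genes; and genes with the most peaks. The peaks of LINC00641, PINK1-AS, AC122718 and AL590004, the parent genes of pseudogenes and the start sequences were chosen after their values were seen. Other steps used Python 3.11.15, pandas 2.3.3 and matplotlib 3.10.9.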

Additional observations from a re-analysis of the deposited data

How the results depend on the processing

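No called gene among those run under the alternatives changed direction, and in every count below more peaks were higher than lower. Single peaks were set only against the authors' FDR. Stricter rules gave fewer called peaks: at the authors' p under 0.01 there were 256 higher and 62 lower with BPQD and 159 and 32 with TiO2, at an FDR under 0.05 there were 251 and 60, and 138 and 27, and in genes of at least 1 FPKM 173 and 59, and 131 and 27. With peaks of at most 2000 bases, 218 were higher with TiO2. Shares over all peaks were not worked out under these rules, so these counts have no background. At the authors' p under 0.05 all called peaks leaned upward too, with 58.1% higher for BPQD and 62.9% for TiO2. Testing more genes raised the counts: at a mean of at least 0.1 FPKM 169 were higher and 56 lower with BPQD, and 274 higher and 47 lower than with TiO2, and with no filter 165 were higher with BPQD and 254 than with TiO2. More genes of the set were tested under these filters, so a larger count is no stronger result. Shares of the set and of all tested genes were not worked out there. Leaving out 1 library gave 70 to 81 genes higher and 19 to 27 lower with BPQD, 11 to 16 higher and 47 to 64 lower with TiO2, and 109 to 126 higher and 24 to 28 lower with BPQD than with TiO2. The replicate block gave 78 and 24, 14 and 63, and 123 and 25, and the replicate numbers did not pair the libraries.

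Of 1530 pairs of a named gene's comparison and an alternative, 1413 kept their side of the threshold, 113 lost the call and 4 gained it. Leaving out 1 library ended calls of AC067930 and AP000924 (BPQD, highest adjusted p 0.12 and 0.0889 by limma), AC018638, AC073896, AL355916 and ELOA-AS1 (TiO2, 0.0851, 0.0766, 0.101 and 0.14) and AL360181 (between the materials, 0.0862), so these are not described. Counts by own exon, joined overlaps and without pseudogenes, the runs for SNHG, LINC01123 and m6A machinery genes, and the FDR of single peaks were alternatives chosen after seeing the data. The planned search for GGACT around peak centres was not run, since no genome was used here. Depth is unknown, so no counting error can be given, and for scarce RNAs the authors' changes rest on low levels.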
